A study of Saccharomyces cerevisiae with 12 samples.

Results

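The genes described here make arginine, the branched-chain amino acids leucine, isoleucine and valine, the aromatic amino acids with tryptophan, threonine and serine, and include GCN4, the transcriptional activator of amino acid synthesis. They were taken from the arrays by a list of locus tags. The rule uses no measured value, but the list was drawn up with earlier results of these data known. The list held 37 of the 6293 genes on the arrays, 7 of the arginine pathway, 4 of leucine, 7 of isoleucine and valine, 9 of the aromatic pathway, 5 of threonine, 4 of serine, and GCN4 itself. All 37 had a value at each of the 12 times and were among the 6283 genes tested.

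RNA was taken from Saccharomyces cerevisiae of strain SK1, a strain that sporulates fast and in near synchrony, at 0.0, 0.5, 1.0, 1.5, 2.0, 2.5, 3.5, 4.0, 4.5, 5.0, 5.5 and 6.0 h of sporulation. Each time was a single pool of 6 synchronized cultures grown on 1 day, so no time was repeated. Each was hybridised against the time-zero RNA on 2 arrays with the dyes exchanged. On the A array the time-zero RNA carried Cy3 and on the B array Cy5. The 0.0 h sample thus sets time-zero RNA against time-zero RNA. Its log2 ratios over all genes had a standard deviation of 0.55 on the A and 0.27 on the B array, against 0.73 to 1.84 on the other arrays. All cultures share the strain and differ in time alone, and the labels give no genotype. LEU2, TRP1 and ARG4 are common marker genes of laboratory strains, and the sources used here do not say whether the strain carried them intact. Values below are log2 ratios of the later RNA over time zero, the mean of the 2 arrays unless an array is named, so 0 means no difference from time zero and 1 means a doubled share of the RNA. A ratio of this kind reports RNA relative to all RNA on the array, and a change of RNA per cell cannot be told apart from a change of the total. For tests, the times were put in windows chosen for this description, early (0.5 to 2.0 h, 4 samples), middle (2.5 to 4.5 h, 4 samples) and late (5.0 to 6.0 h, 3 samples), beside the lone 0.0 h sample. The windows, like the list, were chosen with earlier results of these data known. Successive times stood in for replicates, so the spread in each test holds any real change within a window.

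Amino acids are made in yeast by chains of enzymes whose genes lie scattered over the genome. When amino acids run short, uncharged transfer RNA activates the kinase Gcn2, general translation slows, and translation of the GCN4 mRNA rises. Gcn4 then activates genes in many of these pathways at once, a response called general amino acid control. Because Gcn4 is controlled mainly by translation and by protein turnover, the level of its mRNA does not report its activity. Diploid yeast enters sporulation when nitrogen and fermentable carbon are lacking, a state in which cells recycle their own protein.

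The quality of the arrays bears on every value below. Genes above the 95th percentile of blank spots made up between 23.9% and 89.2% of all genes on an array in the later channel, and between 18 and 37 of the 37 genes described here. At each time the A and B arrays measured the same RNA pair, yet over all genes their ratios correlated weakly, with a median of 0.27 over the 12 times. The 6.0 h pair was lowest at -0.02 and the 1.5 h pair highest at 0.58. Of 24 arrays, 3 were most like the other array of the same time, while 17 were most like an array of the same dye orientation at another time. The 5.0 h A array correlated with the 4.0 h A array at 0.64 and with its own B array at -0.01. The 3.5 h B array correlated with the 6.0 h A array at 0.65 and with its own A array at 0.29. The 6.0 h B array correlated with no other array above 0.18. These 3 arrays stand apart, and the means at 3.5, 5.0 and 6.0 h rest partly on them. Of genes that mark the programme, NDT80, the activator of middle sporulation genes, rose late against middle by 3.27 ± 0.49 (SE, adjusted p = 0.00292). Its A and B arrays gave 0.49 and 7.49 at 5.0 h, 3.62 and 6.40 at 5.5 h, and 7.69 and -0.51 at 6.0 h, and NDT80 was above background in the later channel on 6 of 24 arrays. In all, 2 of 7 sporulation genes, NDT80 included, 0 of 4 haploid mating genes and 0 of 2 G1 cyclin genes passed that test. The means of all 7 sporulation genes were higher late than middle, and those of 6 were higher late than early. IME2 was the exception, at -1.25 late against early, and it was at 1.43 at 0.0 h. IME1 was at -3.11 at 4.5 h. SPO11 gave -0.18 and -0.10 on the A arrays of 5.0 and 5.5 h, against 5.36 and 4.45 on the B arrays.

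The 37 genes did not hold one level through the course. Their median ratio was -0.19 at 0.0 h, 0.72 at 0.5 h, 0.27 at 1.0 h, -0.13 at 1.5 h and 0.61 at 2.0 h. It was 1.20 at 2.5 h, -0.17 at 3.5 h, 0.95 at 4.0 h and 0.93 at 4.5 h, and then 0.07 at 5.0 h, -0.20 at 5.5 h and 0.10 at 6.0 h. The 3 highest medians therefore lie in the middle window, at 2.5, 4.0 and 4.5 h, with the low 3.5 h sample between them, and the late medians lie near 0. Over all genes tested the median stayed between -0.01 and 0.04 at each time. Ratios above 0 were found in 32 of 37 genes at 0.5 h, 34 at 2.5 h, 31 at 4.0 h and 35 at 4.5 h, but in 15 at 1.5 h, 16 at 3.5 h and 14 at 5.5 h.

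**Figure D1:**
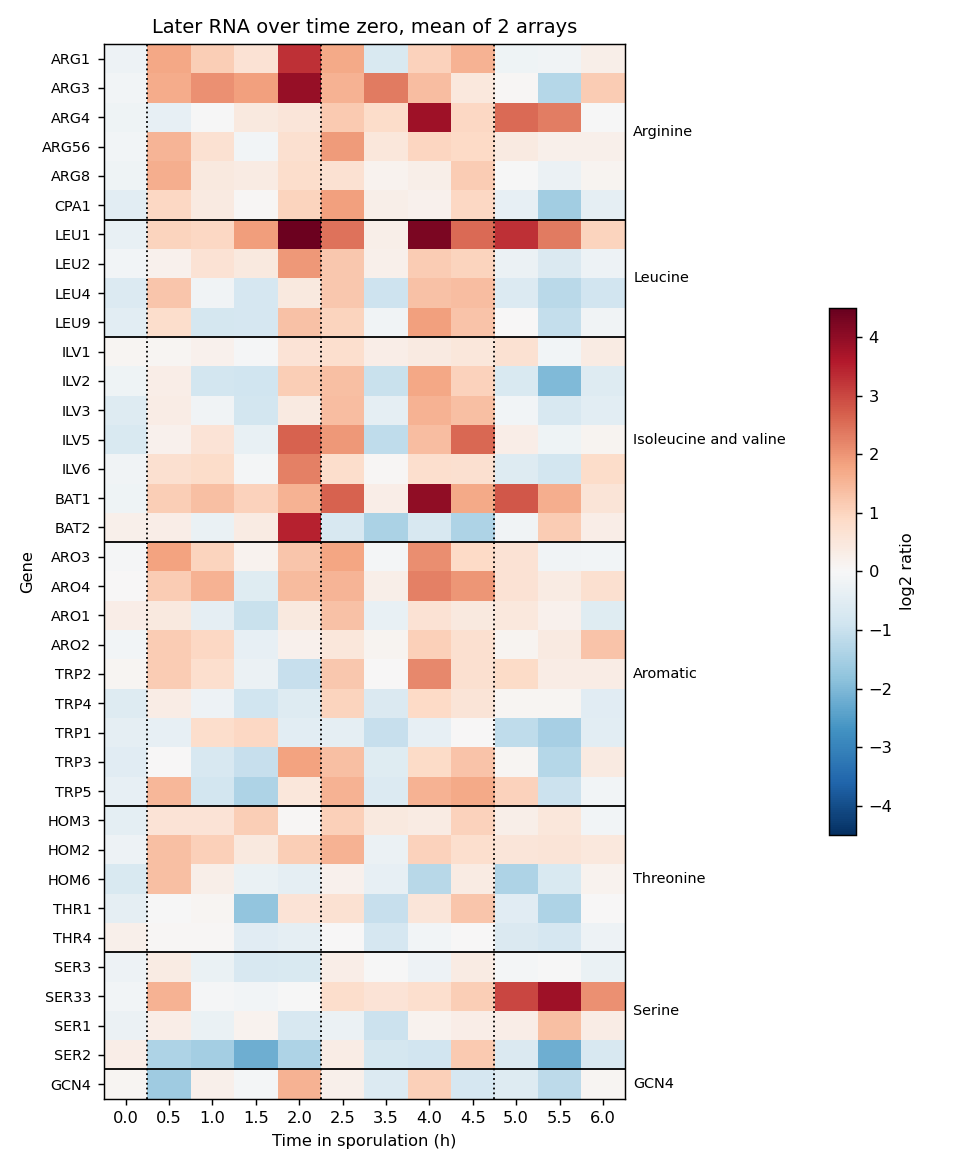
Log2 ratio of the later RNA over time zero for the genes reported (rows, by pathway) at the 12 times (columns, in hours), as the mean of 2 arrays; red is above and blue below time zero, solid lines part the pathways and dotted lines part the windows. Columns 2.5, 4.0 and 4.5 h are mostly red, columns 1.5, 3.5 and 5.5 h are mixed or blue, and SER33 is red in all 3 late columns.

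The arrays mostly gave ratios above 0 together at 2.5, 4.0 and 4.5 h, and less often at 3.5 h and in the late window. Both arrays gave ratios above 0 for 30 genes at 2.5 h, 24 at 4.0 h and 28 at 4.5 h, but for 7 at 3.5 h, 7 at 5.0 h, 6 at 5.5 h and 12 at 6.0 h. Over all genes that share lay between 23.4% and 32.7% at these times. Both gave ratios below 0 for 1, 4 and 1 of the genes at 2.5, 4.0 and 4.5 h. At 3.5, 5.0, 5.5 and 6.0 h both did so for 11, 4, 12 and 9. The median of the 37 genes was 0.99 on the A and -0.49 on the B array at 5.0 h, 0.53 and -0.96 at 5.5 h, and 0.15 and -0.53 at 3.5 h. At 6.0 h it was 0.23 and -0.04. At those 4 times the sign of the group depended on the orientation. Across the course the 2 arrays of a time gave the same sign in 292 of 439 gene and time pairs, 66.5%, against 56.8% over all genes. All genes hold a larger share of dim ones. The median array had 56.3% of all genes above background in the later channel, against 34.5 of the 37. The part of signal in this gap was not tested.

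**Figure D2:**
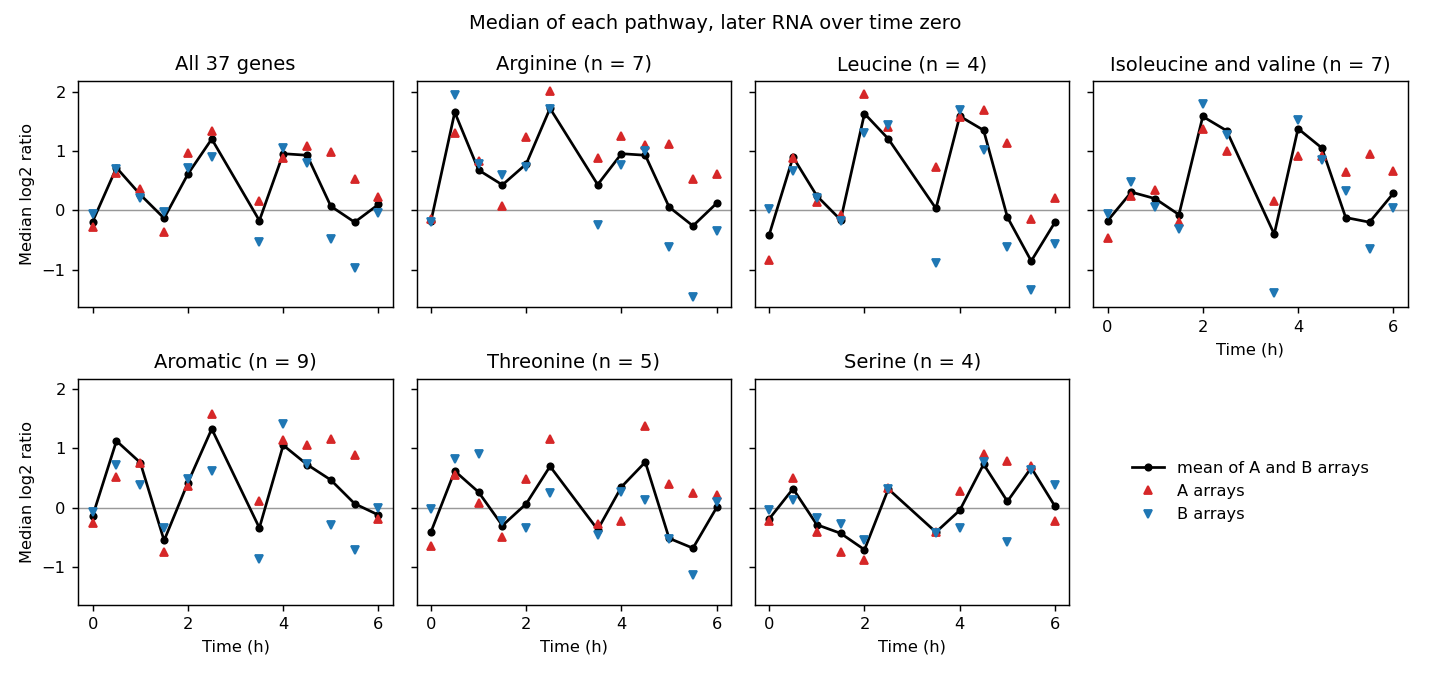
Median log2 ratio over time zero (vertical axis) against time in hours (horizontal axis) for all 37 genes and for each pathway; black points are medians of the 2-array means, red triangles the A and blue triangles the B arrays. A and B medians of the 37 genes lie on the same side of 0 up to 2.5 h and at 4.0 and 4.5 h, and on opposite sides at 3.5, 5.0, 5.5 and 6.0 h.

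Between windows, few of the 37 genes passed a test. Early against zero 0 of 37 passed limma's test at a 5% false discovery rate, with 0% of all genes called, and 3 had an unadjusted p under 0.05, against 5.87% of all genes. Middle against early 0 of 37 passed, again with 0% of all genes called, and 4 had an unadjusted p under 0.05, against 7.31% of all genes. Late against middle 1 gene passed, SER33, which rose, where 3.63% of all genes were called (3.31% higher and 0.318% lower). Late against early 2 passed, SER33, which rose, and ARG3, which fell, where 6.61% of all genes were called (5.4% higher and 1.21% lower). Late against zero 0 of 37 passed, where 0.891% of all genes were called, and 1 had an unadjusted p under 0.05, against 11.7% of all genes. A spline of time with 3 degrees of freedom called 0 of 37, where 0.637% of all genes were called (0.589% higher and 0.0477% lower at the end than at the start), and 5 had an unadjusted p under 0.05, against 13.1% of all genes. Each of these shares called lies near or below that of all genes. Unadjusted p was under 0.05 for 10 of the 37 genes late against middle and 9 late against early, against 19% and 22.8% of all genes. Those with such a p that were lower late numbered 9 and 8, against 6.57% and 8.45% of all genes. The comparisons with zero rest on the lone 0.0 h sample.

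The direction of the 37 genes as a group is given as a description. Early against zero the median difference was 0.62, with 32 of 37 genes above 0, beside -0.02 for all genes. The 0.0 h sample itself had a median of -0.19, and set against a ratio of 0 the early median was 0.23. Late against middle the median difference was -0.62, with 33 of 37 genes below 0, beside 0.03 for all genes. In the same comparison 9 of the 10 genes with an unadjusted p under 0.05 were lower late, while among all genes 413 were lower and 778 higher. Late against early the median was -0.39, with 24 of 37 genes below 0. That late against early median was 0.09 over the A arrays and -1.02 over the B arrays, so its sign turned with the orientation, whereas the late against middle median was -0.35 over the A and -1.32 over the B arrays. With the channels read in the order the file headers list the images, the late against middle median was 0.29 and 0 of the 37 genes passed in any comparison.

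**Figure D3:**
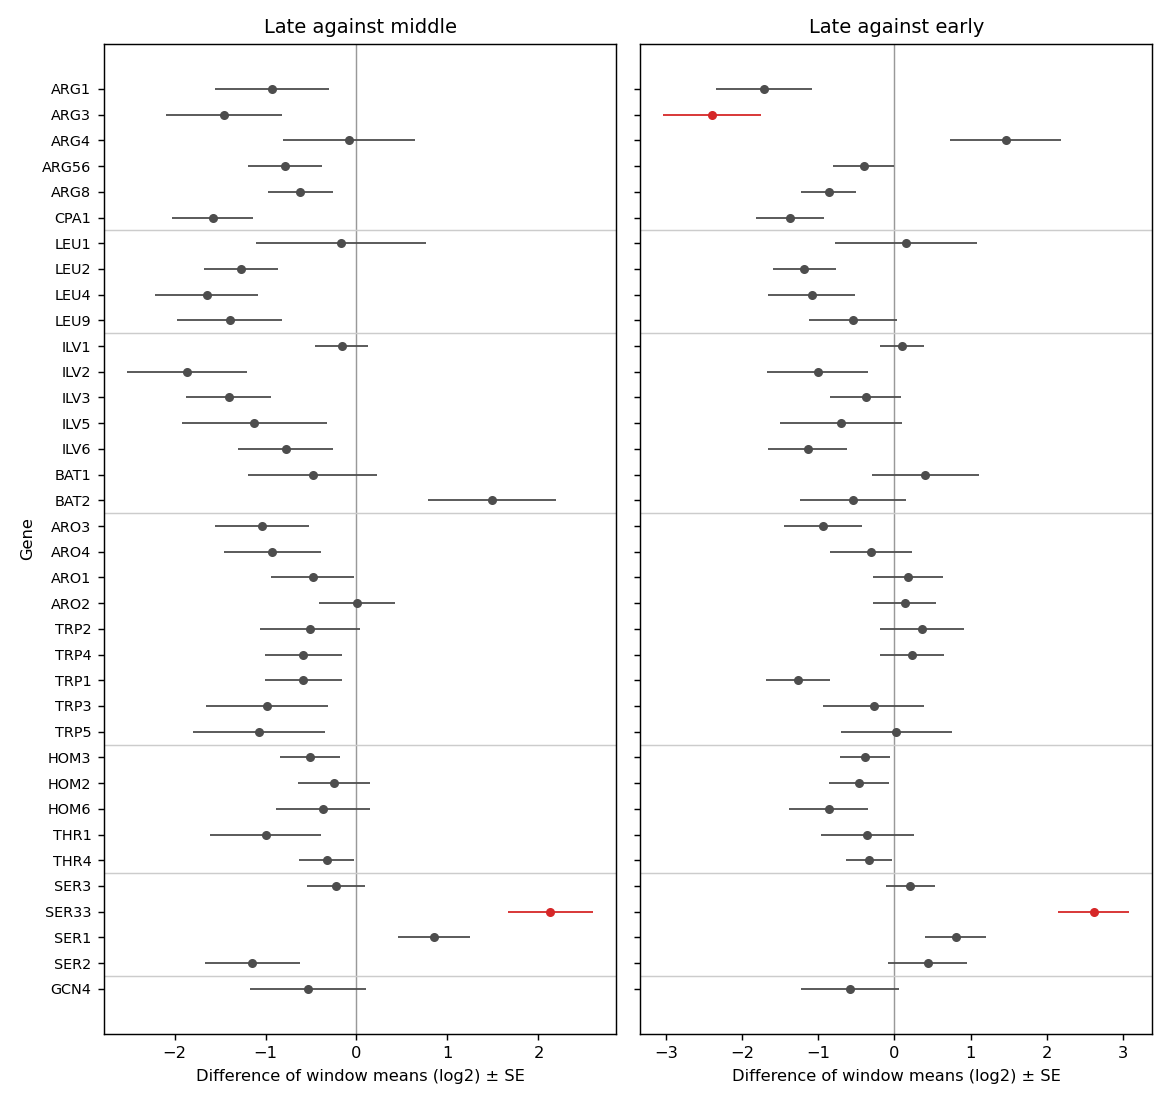
Difference of window means on the log2 scale with its standard error (horizontal axis) for the genes reported (vertical axis), late against middle at left and late against early at right; red marks genes past a 5% false discovery rate and grey lines part the pathways. Most points at left lie below 0, and SER33 lies apart at 2.13 and 2.61.

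Of the arginine genes, ARG3 (YJL088W), ornithine carbamoyltransferase, which joins ornithine to carbamoyl phosphate to make citrulline, had the widest course. Its ratio was -0.12 at 0.0 h, 1.66, 2.04, 1.85 and 3.93 at 0.5, 1.0, 1.5 and 2.0 h, 1.55, 2.34, 1.38 and 0.47 at 2.5, 3.5, 4.0 and 4.5 h, and 0.06, -1.27 and 1.14 at 5.0, 5.5 and 6.0 h. All 4 early values lay above all 3 late values, and the middle values lay across both. At 6.0 h the A array gave 2.21 and the B array, which stands apart, 0.07. That A value lay above the 1.92 of the 1.0 h A array, so this order of early and late values does not hold on the A arrays. ARG3 fell late against early by 2.39 ± 0.64 on the log2 scale (SE, 4 early and 3 late samples, adjusted p = 0.0408, limma), and its difference was -2.47 over the A and -2.32 over the B arrays. The call was lost, with adjusted p between 0.0579 and 0.198, when 1.0, 1.5, 2.0, 2.5, 4.0, 5.0 or 5.5 h was left out, and without the 6.0 h B array the difference was -2.04 (adjusted p = 0.110). Early against zero ARG3 differed by 2.49 ± 0.93 and did not pass (adjusted p = 0.812).

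The other arginine genes showed 2 shapes. CPA1, which serves the carbamoyl phosphate step of arginine synthesis, ran from 1.86 at 2.5 h down to -1.55 at 5.5 h, where the A array gave 0.36 and the B array -3.46. Its late against middle difference of -1.58 ± 0.45 did not pass (adjusted p = 0.0740). ARG1, argininosuccinate synthetase, had its highest ratio of 3.29 at 2.0 h and late values between -0.18 and 0.26. These late values average arrays of opposite sign, with 1.48 on the A and -1.84 on the B array at 5.0 h and 2.02 and -2.31 at 5.5 h. ARG8, acetylornithine aminotransferase, and ARG56, the acetylglutamate kinase and reductase written ARG5,6 elsewhere, ranged over 1.91 and 2.06 log2 units. ARG4, argininosuccinate lyase, ran otherwise. Its early values lay between -0.38 and 0.56, below all its middle values, and its highest ratio was 3.80 at 4.0 h, with 4.31 on the A and 3.29 on the B array. Its arrays differed in sign at 2.0 h, with -1.21 on the A and 2.32 on the B array, at 2.5 h, with -0.67 and 3.03, and at 4.5 h, with -0.69 and 2.55, so the order of its early and middle values holds for the means only. ARG4 was at 2.54 at 5.0 h, with 4.43 on the A array, which stands apart, and 0.65 on the B array, and at 2.29 at 5.5 h, with 3.34 and 1.25.

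No overlap between windows was also counted on the 2-array means, since it needs no estimate of the spread. Late values lay below all middle values for 4 of the 37 genes, ARG56, ARG8, CPA1 and LEU2, where 5.25% of all genes did so, and above them for 2, BAT2 and SER33, where 9.93% did so. Late values lay below all early values for 5 genes, ARG1, ARG3, ARG8, CPA1 and LEU2, where 6.14% of all genes did so, and above them for 2, SER33 and SER1, where 11.7% did so. Middle values lay above all early values for 2, ARG4 and SER2, where 2.47% of all genes did so, and below them for 1, BAT2, where 2.04% did so.

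In the leucine pathway LEU1 (YGL009C), isopropylmalate isomerase, stood above the rest. Its ratio was -0.34 at 0.0 h, 0.99, 0.93, 1.90 and 4.41 at 0.5, 1.0, 1.5 and 2.0 h, 2.46, 0.26, 4.23 and 2.56 at 2.5, 3.5, 4.0 and 4.5 h, and 3.30, 2.33 and 1.00 at 5.0, 5.5 and 6.0 h. Every sample after 0.0 h was above 0, and the 3.5 h sample was the lowest of them, with 1.06 on the A and -0.53 on the B array. The 5.0 h value is that of its A array alone, and the 2.0 h value joins 2.60 on the A with 6.22 on the B array. Late against zero LEU1 differed by 2.55 ± 1.41 and did not pass (adjusted p = 0.516). That test assumes that the lone 0.0 h sample varies like the others, although its ratios spread less over all genes. LEU2, β-isopropylmalate dehydrogenase, had middle values between 0.24 and 1.21 and late values between -0.64 and -0.24. LEU4 and LEU9, the isopropylmalate synthases that start the pathway, were highest at 1.40 and 1.86 and both lowest late, at -1.21 and -1.06 at 5.5 h, where LEU4 was at 0.02 on the A and -2.45 on the B array and LEU9 at -0.42 and -1.70.

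Isoleucine and valine share most of their enzymes. ILV2 and ILV6 encode the catalytic and regulatory subunits of acetolactate synthase, ILV5 the reductoisomerase and ILV3 the dihydroxyacid dehydratase. ILV2 reached 1.72 at 4.0 h and -2.00 at 5.5 h, the lowest mean ratio of the pathway, which joins 0.94 on the A with -4.93 on the B array. ILV5 was at 2.64 at 2.0 h, -1.13 at 3.5 h and 2.59 at 4.5 h, so that neighbouring times differed more than windows did. ILV1, threonine deaminase, which draws threonine into isoleucine, ranged over 0.85 log2 units, the narrowest of the 37 genes.

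BAT1 and BAT2 encode the mitochondrial and the cytosolic branched-chain aminotransferase, which carry out the last step of synthesis and the first of breakdown. BAT2 (YJR148W) was at 0.21 at 0.0 h, 0.31, -0.29, 0.38 and 3.45 at 0.5, 1.0, 1.5 and 2.0 h, -0.73, -1.44, -0.73 and -1.39 at 2.5, 3.5, 4.0 and 4.5 h, and -0.17, 1.13 and 0.29 at 5.0, 5.5 and 6.0 h. Its 4 middle values were all below its early and its late values, and its 5.0 h value joins -1.80 on the A with 1.47 on the B array. The 2.0 h value joins 1.76 on the A and 5.14 on the B array, and the middle against early difference of -2.03 ± 0.65 did not pass (adjusted p = 0.566). BAT1 had a mean above 0 at every time after 0.0 h, with 1.95 on the A and -1.38 on the B array at 3.5 h, and reached 3.99 at 4.0 h, where BAT2 was 4.72 lower. Over the 12 times the courses of BAT1 and BAT2 correlated at r = -0.12, given as a description, since all points share the time-zero RNA.

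Other pairs of isoenzymes ran closer together. LEU4 and LEU9 correlated at 0.88 over the 12 times, and their widest gap was 0.86, at 2.0 h. ARO3 and ARO4, the synthases that open the aromatic pathway and answer to phenylalanine and to tyrosine respectively, correlated at 0.79. SER3 and SER33 correlated at 0.40, with a gap of 3.83 at 5.5 h. The sources used here do not say whether the spotted probes tell such related genes apart.

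**Figure D4:**
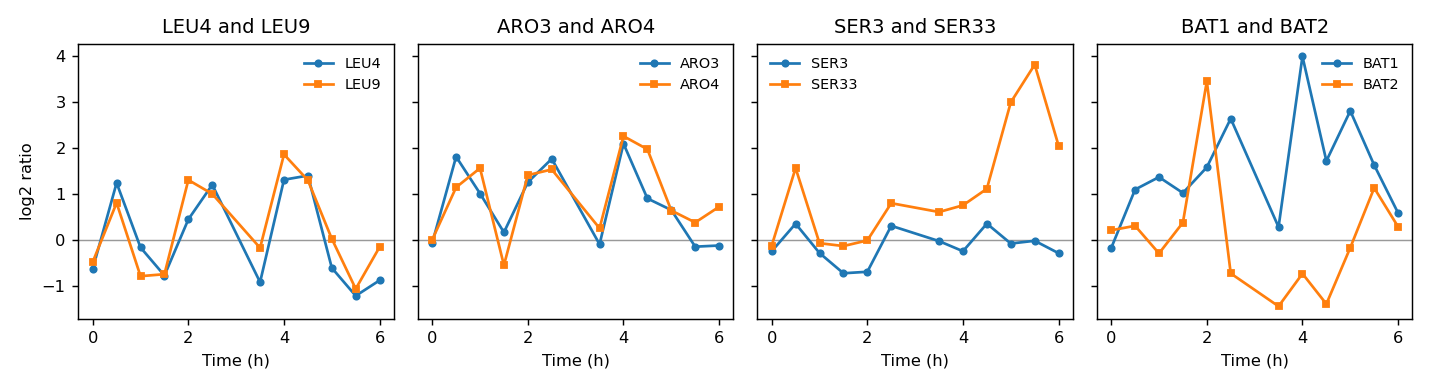
Log2 ratio over time zero (vertical axis) against time in hours (horizontal axis) for 4 pairs of isoenzyme genes, each point the mean of 2 arrays. LEU4 and LEU9, and ARO3 and ARO4, run together; SER33 leaves SER3 at 5.0 h, and BAT1 and BAT2 part from 2.5 h.

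In the aromatic pathway the values were smaller. TRP2 (YER090W), which makes anthranilate together with the TRP3 product, was at 0.08 at 0.0 h, 1.13, 0.76, -0.26 and -1.03 at 0.5, 1.0, 1.5 and 2.0 h, 1.21, 0.00, 2.16 and 0.72 at 2.5, 3.5, 4.0 and 4.5 h, and 0.86, 0.34 and 0.33 at 5.0, 5.5 and 6.0 h. Both arrays gave 2.15 and 2.16 at 4.0 h, its highest time, and 2.30 and -0.57 at 5.0 h, where they disagreed in sign. ARO3 and ARO4 had their highest ratios of 2.09 and 2.26 at 4.0 h. TRP1, phosphoribosylanthranilate isomerase, was at its highest of 0.95 at 1.5 h, when the median of the 9 aromatic genes was -0.55, and at its lowest of -1.49 at 5.5 h. ARO1, the multifunctional enzyme of the central pathway, and TRP4, the anthranilate phosphoribosyltransferase, were above background on 13 of 24 arrays in the later channel, and their ratios rest on dim spots. ARO2, chorismate synthase, TRP3 and TRP5, tryptophan synthase, ranged over 1.65, 3.09 and 3.08 log2 units. None of the 9 aromatic genes passed in any comparison under the processing used here. With the authors' deposited table, TRP1 was called lower late against early in place of ARG3 (-1.37, adjusted p = 0.302), and TRP1 was also called in that comparison without the 6.0 h sample, without its B array and without all 3 arrays that stand apart.

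The threonine pathway runs from aspartate through HOM3, aspartate kinase, HOM2, aspartate semialdehyde dehydrogenase, and HOM6, homoserine dehydrogenase, to THR1 and THR4, homoserine kinase and threonine synthase. THR1 (YHR025W) was at -0.40 at 0.0 h, -0.03, 0.10, -1.77 and 0.61 at 0.5, 1.0, 1.5 and 2.0 h, 0.70, -1.04, 0.56 and 1.26 at 2.5, 3.5, 4.0 and 4.5 h, and -0.51, -1.38 and 0.01 at 5.0, 5.5 and 6.0 h. Its lows at 1.5 and 3.5 h were below 0 on both arrays, while at 5.5 h the A array gave 0.26 and the B array -3.02. HOM2 had its highest ratio of 1.57 at 2.5 h and HOM3 of 1.11 at 1.5 h, a value of its B array alone. HOM6 ran from 1.37 at 0.5 h to -1.38 at 5.0 h, and THR4 stayed within 1.00 log2 unit. All 5 had lower means late than early and late than middle, the late against early differences lay between -0.86 for HOM6 and -0.34 for THR4, and none passed. Late against early, HOM3 and HOM6 were lower in both orientations. HOM2, THR1 and THR4 differed by 0.09, 0.42 and 0.07 over the A and by -1.02, -1.13 and -0.74 over the B arrays. Late against middle, the sign also turned for HOM2, with -0.62 over the A and 0.12 over the B arrays, and for THR1, with 0.03 and -2.03.

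The serine genes went separate ways. SER33 (YIL074C) and SER3 encode phosphoglycerate dehydrogenase, the first step of serine synthesis from glycolysis. SER33 was at -0.12 at 0.0 h, 1.56, -0.07, -0.13 and -0.01 at 0.5, 1.0, 1.5 and 2.0 h, 0.80, 0.61, 0.75 and 1.11 at 2.5, 3.5, 4.0 and 4.5 h, and 2.99, 3.81 and 2.05 at 5.0, 5.5 and 6.0 h. All 3 late values lay above all earlier ones. SER33 rose late against middle by 2.13 ± 0.47 (SE, 3 late and 4 middle samples, adjusted p = 0.0207) and late against early by 2.61 ± 0.47 (adjusted p = 0.00487), while late against zero it differed by 3.08 ± 0.71 and did not pass (adjusted p = 0.0657). Its late ratios were 2.71 and 3.28 on the A and B arrays at 5.0 h, 4.39 and 3.24 at 5.5 h, and 3.94 and 0.16 at 6.0 h, so the arrays parted at 6.0 h, whose B array stands apart. Without that array the late against middle difference was 2.76 (adjusted p = 0.00223). The late against middle call was lost when 2.5, 4.0, 5.0 or 5.5 h was left out, with adjusted p between 0.0541 and 0.128, and the late against early call held in each of the 12 such fits. With windows ending at 1.5 and 4.0 h neither call held. The differences were then 1.95 late against middle (adjusted p = 0.471) and 2.04 late against early (adjusted p = 0.2005). SER33 was above background in the later channel on 5 of 8 early, 5 of 8 middle and 5 of 6 late arrays, and in the time-zero channel on 13 of 24.

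SER3 lay between -0.72 and 0.36 throughout, and its late against early difference was 0.21 ± 0.32. SER1, phosphoserine aminotransferase, had its highest ratio of 1.37 at 5.5 h. SER2, the phosphoserine phosphatase that ends the pathway, was at -1.39, -1.52, -2.19 and -1.39 at the 4 early times and below 0 on both arrays at each of them. Its early against zero difference was -1.93 ± 0.76 (adjusted p = 0.824), and it was above background in the later channel on 13 of 24 arrays.

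GCN4 (YEL009C) was at 0.08 at 0.0 h, -1.59, 0.24, -0.10 and 1.57 at 0.5, 1.0, 1.5 and 2.0 h, 0.25, -0.63, 1.08 and -0.75 at 2.5, 3.5, 4.0 and 4.5 h, and -0.59, -1.16 and 0.10 at 5.0, 5.5 and 6.0 h. The windows overlapped throughout. At 2.0 h, its highest time, the A array gave -1.14 and the B array 4.29, and the 4.5 h value is that of the B array alone. Both arrays were below 0 at 0.5 h, with -2.59 and -0.59, and at 5.5 h, with -1.07 and -1.25. GCN4 passed in no comparison, and its late against early difference was -0.58 ± 0.64 (adjusted p = 0.635). Its course correlated with those of the other 36 genes between -0.64 for SER3 and 0.68 for LEU2 over 12 times, and with their median at 0.24.

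**Figure D5:**
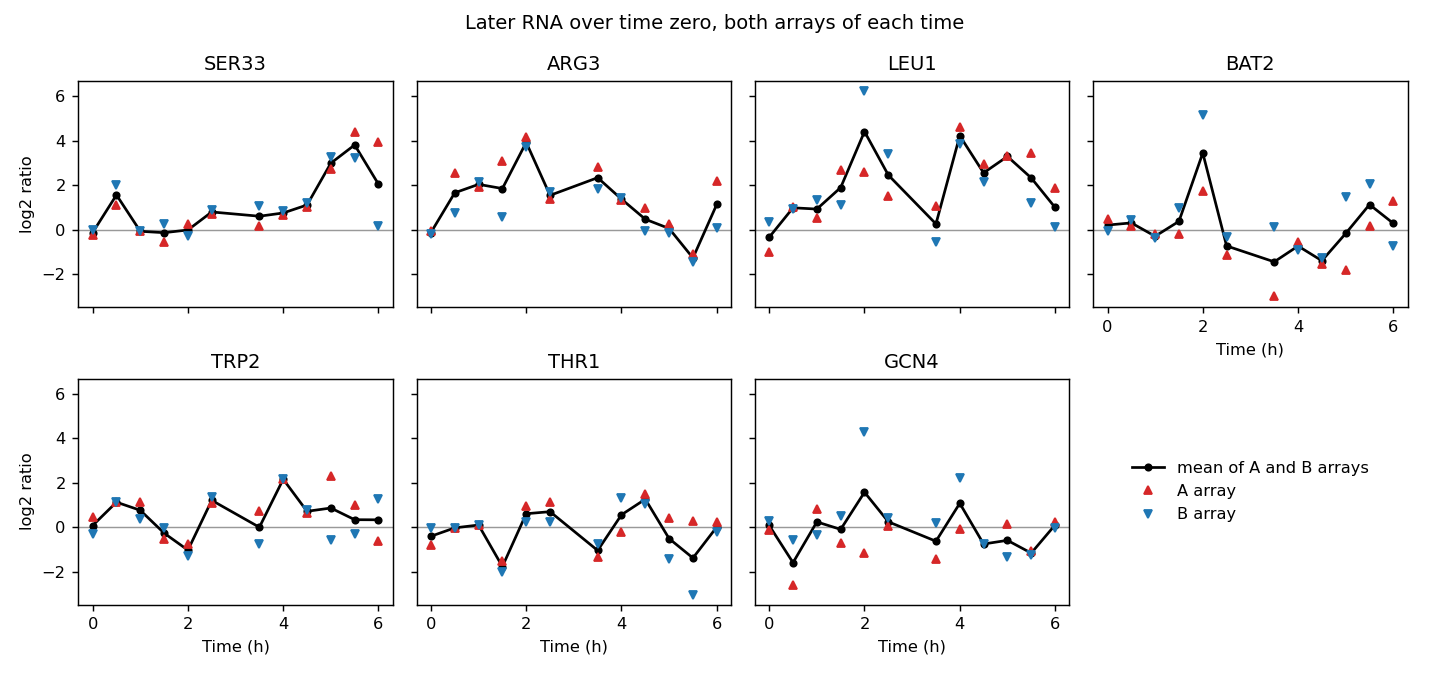
Log2 ratio over time zero (vertical axis) against time in hours (horizontal axis) for SER33, ARG3, LEU1, BAT2, TRP2, THR1 and GCN4; black points are means of both arrays, red triangles the A and blue triangles the B array. Both SER33 arrays are high at 5.0 and 5.5 h and part at 6.0 h, and the 2.0 h B array is far above the A array for LEU1, BAT2 and GCN4.

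Likeness of course was measured by the correlation over the 12 times, which share the time-zero RNA and the arrays. Pairs within a pathway had a median r of 0.53 over 100 pairs and pairs across pathways 0.37 over 566 pairs, against 0.00 over all pairs of tested genes. The tested genes hold a larger share of dim genes than the 37, and pairs of like signal were not compared. LEU4, ILV3 and ARO3 ran closest to the median of the other members, at 0.95, 0.94 and 0.88. SER33, BAT2 and SER1 were the only genes with a negative r, at -0.21, -0.16 and -0.14. The highest value of a gene fell at 2.0 h in 9 genes, 4.0 h in 8 and 2.5 h in 7, and the lowest at 5.5 h in 14 and 1.5 h in 10. These counts were not made over all genes, so they are not read as a trait of the 37. The 5.5 h B array had the widest spread of all arrays, a standard deviation of 1.84. At that time the median of the 37 genes was 0.53 on the A and -0.96 on the B array.

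Other genes of the same pathways were read from lists chosen with earlier results of these data known. Of 11 further synthesis genes 0 passed in any comparison. ARG2, acetylglutamate synthase, lay between -0.43 and 1.04 and was above background in the later channel on 7 of 24 arrays, and TYR1, prephenate dehydrogenase, lay between -0.41 and 1.57. Of 5 breakdown genes, CAR2, ornithine transaminase, had no value at 2.0 h and was not tested, and 0 of the other 4 passed. CAR1, arginase, which degrades arginine, was at 4.90 at 2.0 h, 3.55 on the A and 6.26 on the B array, and between -0.89 and 1.06 in the middle window. At 0.0 h, time-zero RNA against itself, CAR1 was already at 0.81, with 1.99 on the A and -0.37 on the B array. CAR2 lay between 0.28, at 0.0 h, and 2.13 at the 11 times with a value, and at 6.0 h its arrays gave 3.66 on the A and -1.02 on the B array. ARO10, a decarboxylase of aromatic amino acid breakdown, lay the other way, below 0 at every time after 0.0 h and lowest at -4.93 at 3.5 h, with -7.20 on the A and -2.67 on the B array, and its late against middle difference of 2.63 ± 0.69 did not pass (adjusted p = 0.0529). CHA1, the serine and threonine deaminase, lay between -2.63 at 5.5 h and 0.12 at 2.0 h. ARO9, an aromatic aminotransferase, lay between -1.31 and 2.28. Of 10 further regulators 0 passed. GCN2, the kinase upstream of Gcn4, lay between -0.95 and 0.51, and PCL5, a cyclin that targets Gcn4 for degradation and is itself activated by Gcn4, lay between 0.09 and 2.25 with its highest value at 2.5 h.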

How the data were processed

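Each sample was 1 pooled RNA hybridised on 2 dye-swapped arrays, 24 arrays in all, each with 13056 spots for 6293 genes and controls. Per the file headers, the deposited values are spot intensities of 2 scanned images; the sources used here name neither software nor genome build. The authors' deposited series table holds log2 ratios, whose normalization is not given; its column medians lie between -0.01 and 0.06.

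The channels were read in 2 ways, and the choice between them was made after the data were seen. The file headers list the time-zero image first on every array, and that order was taken first. So read, the A and B ratios correlated at a median of -0.27 (-0.58 to 0.02), limma called 6 genes late against early and 0 in the other comparisons, and r with the authors' table lay between -0.71 and 0.71. The sample labels give channel 1 as Cy3 and channel 2 as Cy5, against the header order on the B arrays. So read, A and B correlated at a median of 0.27 (-0.02 to 0.58), and r with the authors' table lay between 0.88 and 0.96 at 11 times and was 0.16 at 0.5 h, whose direction that table does not bear out. The second reading is used throughout, and calls under the first are given as an alternative.

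Flagged (U or Z) and non-positive spots were dropped, and log2 ratios were loess-normalized within arrays (limma 3.58.1, R 4.3.3, span 0.3, 4 iterations). Spots of a gene and then both arrays were averaged. Limma fitted 4 window means over all 12 samples, with Benjamini-Hochberg adjustment over 6283 genes at 5%; the fit was tested on simulated data. Of the 888 values of the 37 genes, 5 were missing, and the other array then stood alone. The number of arrays limits the precision. With no repeat of a time, a p-value here weighs a difference against the spread of the times within windows.

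Genes shown at every time were those called, GCN4 and, per pathway, the gene with the widest course among those above background on at least 12 arrays. All 76 listed genes matched a RefSeq locus tag. The members, lists and windows were chosen with earlier results of these data known. Alternatives tried were normexp background, single orientations, stricter spot flags, median centring, scaling between arrays, a filter on dim genes, other windows, the authors' table, a ratio of 0 as control, each time left out, and, added after seeing the data, the header order of channels and 3 arrays left out. No promoter or protein sequence was used here. The values of 1 gene of the list are not reported here, though counts and medians over the list include it.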

Additional observations from a re-analysis of the deposited data

Results flagged for a closer look

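Among 88 groups of 4 samples examined, the 37 genes and the pathway medians in the early and middle windows, 8 held a sample far from the other 3, under a criterion set to pick about 1 in 20 groups by chance. The groups are not independent, since they share samples and the medians are built from the genes. In the early window, ARG3 was at 3.93 at 2.0 h against 1.66 to 2.04 at the other times, SER33 at 1.56 at 0.5 h against -0.13 to -0.01, and SER2 at -2.19 at 1.5 h against -1.52 to -1.39. In the middle window, ARG4 was at 3.80 at 4.0 h against 0.82 to 1.18. The other 4 were all low at 3.5 h, LEU4 at -0.92, ILV3 at -0.40, ILV6 at 0.042 and TRP5 at -0.62, while the other middle values of these genes lay between 0.73 and 1.69. At 3.5 h LEU4 was at 0.32 on the A and -2.16 on the B array and ILV3 at 0.75 and -1.55, below 0 on the B array only, while ILV6 was at -0.11 and 0.20, and TRP5 at -0.70 and -0.55, below 0 on both. The 3.5 h sample is the one whose B array correlated with the 6.0 h A array at 0.65, above the 0.29 with its own A array; its part in these low values was not tested.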

How the results depend on the processing

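No alternative turned the direction of SER33 or ARG3, but their calls depended on the processing. SER33 passed late against early in 22 of 26 alternatives (0.87 to 3.48) and late against middle in 14 (0.91 to 3.04), and ARG3 late against early in 10 (-2.98 to -0.08). These tallies include the alternatives that left out arrays, in each of which SER33 passed both tests. They also include the fit without 0.0 h, which repeats the main values, since that sample does not enter these comparisons. Such passes add no support. The cause of the dependence on processing was not tested.

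Late against middle, 0 of the 37 genes passed with normexp, stricter flags, median centring or scaling, where 105, 120, 94 and 36 of all genes did. With A arrays alone, B arrays alone, windows ending at 1.5 and 4.0 h, or channels in header order, 0 of all genes passed, and so 0 of the 37. Late against early, 1 passed with A arrays alone, median centring or scaling, where 43, 120 and 136 of all genes did. With B arrays alone, the other windows or header order 0 passed, where 0, 0 and 6 of all genes did. The spline called 1 with A arrays alone, where 262 of all genes were called. Against a ratio of 0 instead of the 0.0 h sample, 7 passed early (HOM2, LEU1, SER2, ARG3, ARG1 and ARG8 among them) and 5 late (TRP1, LEU1, SER2, BAT1 and SER33), where 704 and 1422 of all genes did; that test leaves out the spread of the 0.0 h sample.

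Medians of the genes moved by more than 0.45, their spread between samples, with A arrays alone (33 of the 37 genes had all values, late against early 0.091, late against zero 0.83), with B arrays alone (36 genes, late against middle -1.19, late against early -1.01, late against zero -0.58) and with header order (early against zero 0.092, late against middle 0.29, late against early 0.64, late against zero 0.65). The late against middle median also moved by more than 0.45 with all 3 arrays that stand apart left out (36 genes, -1.09). Over all 26 alternatives the late against middle median was below 0 in 25, all but header order.

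The alternatives that left out arrays were added after seeing the data, and 2 of the arrays were chosen because they resembled those of another window, which by itself favours a difference between windows; they support nothing here. Without the 6.0 h B array 2 genes passed late against middle, 1 late against zero and 1 in the spline, where 495, 90 and 446 of 6278 genes did. Without the 5.0 h A array 5, 4 and 1 passed late against middle, late against early and late against zero, where 515, 579 and 98 of 6239 did. Without the 3.5 h B array 5 passed late against middle and 1 late against early, where 352 and 413 of 6273 did. Without all 3, 11, 5 and 1 passed late against middle, early and zero and 1 in the spline, where 1170, 920, 325 and 274 of 6225 did, and the late against middle median over 36 genes was -1.09.

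With each time left out, between 0 and 4 genes passed late against middle, where 124 to 466 of all genes did. Between 1 and 3 passed late against early, where 175 to 739 of all genes did. Late against zero 0 or 1 passed, where 28 to 114 did, and in the spline between 0 and 2, where 0 to 146 did. Over all 26 alternatives the count of all genes called late against middle ran from 0 to 1170 beside 228, late against early from 0 to 920 beside 415, late against zero from 0 to 1422 beside 56 and, over 25, in the spline from 0 to 446 beside 40.

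The authors' table gave values at all 12 times for 34 of the 37 genes, and SER1 has none there. The blocked fit on single arrays was not used, since both arrays of a time are 1 sample. No paired analysis was possible because the windows hold successive times, whose numbers pair nothing. Signal limits ARO1, TRP4, THR4 and SER2, above background on 13 of 24 arrays in the later channel.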
